A study of Mus musculus with 7 samples.

Results

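The genes described here are Ins1 and Ins2, from which mice make insulin, and Iapp, the amylin gene. They were taken by their Ensembl identifiers, ENSMUSG00000035804 for Ins1, ENSMUSG00000000215 for Ins2 and ENSMUSG00000041681 for Iapp, a rule that uses no measured value, though earlier results of these data were known when they were chosen. They are 3 of the 21899 genes listed in the islet RNA-seq of F2 male mice, and all 3 passed the minimum mean of 10 counts that 13624 genes passed. Pancreatic islets are small groups of endocrine cells in which insulin comes from β-cells, glucagon from α-cells, somatostatin from δ-cells and pancreatic polypeptide from PP cells.

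The mice were C57BL/6J males of the F2 generation, sired by F1 males that were bred with wild-type females. In the AE-F2 group, labelled HA and hyperandrogenism, the F0 dams had received dihydrotestosterone, a potent androgen, late in pregnancy. In the control-F2 group the F0 dams had received only the vehicle. The F1 fathers had been exposed in the womb only and the F2 mice received nothing themselves. The age of the islet donors is not given in the labels. Islets were freed from the pancreas with collagenase, picked by hand and kept in culture medium, and how many mice stood behind a library is not stated. The labels give 3 control-F2 and 4 AE-F2 samples. The values here are from control-F2 replicate 1 and AE-F2 replicate 4, and the other 5 samples were not analysed here. With 1 library a group there is no measure of the spread between animals, no test was run, and every difference below is one between these 2 libraries. The files held 16285888 counts for the control-F2 library and 21278513 for the AE-F2 library.

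β-cells make insulin as a preproinsulin that is cut to proinsulin, folded in the endoplasmic reticulum, and cut again in the secretory granule into insulin and C-peptide. Most mammals have a single insulin gene. Mice and rats have a pair of them, Ins2 being the counterpart of the single gene of other mammals and Ins1 a copy that arose by retroposition and lacks one of the introns of Ins2. Amylin is a peptide of the calcitonin family that is processed by the same convertases and released with insulin from the same granules, and it slows gastric emptying and lowers food intake.

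The insulin genes resemble each other closely, so the sequence that tells their reads apart is shown first. In the GENCODE M21 transcripts the coding sequence with its stop codon has 327 bases in Ins1, 333 in Ins2 and 282 in Iapp. The alignment of Ins1 with Ins2 had 333 columns, of which 302 were identical, 25 were mismatched and 6 were gaps, and 92.4% of the ungapped columns were identical. The stretch in which they differed most is printed from 5′ to 3′, with capitals for the bases that differ or have no partner in the other gene. It runs from base 157 to base 270 of the Ins1 coding sequence, with 10 capitals, and from base 157 to base 276 of that of Ins2, with 16 capitals.
Ins1: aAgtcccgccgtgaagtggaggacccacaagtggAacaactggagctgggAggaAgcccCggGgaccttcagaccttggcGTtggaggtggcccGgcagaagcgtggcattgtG
Ins2: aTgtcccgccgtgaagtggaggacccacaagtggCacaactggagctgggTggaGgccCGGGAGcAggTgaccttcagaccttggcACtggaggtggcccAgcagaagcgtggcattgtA
The longest stretch without a difference has 56 bases and follows directly on the stretch above in both genes, from base 271 to base 326 in Ins1 and from base 277 to base 332 in Ins2. It covers most of the sequence of the insulin A chain at the end of the protein.
Ins1 and Ins2 in common: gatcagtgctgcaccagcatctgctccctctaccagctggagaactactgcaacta

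A read that lies wholly inside an identical stretch cannot be assigned to a single insulin gene. Of the 1013 windows of 50 bases in the Ins1 transcript, 7 (0.691%) were also found in Ins2, and of the 429 windows in the Ins2 transcript, 7 (1.63%) were also found in Ins1. No window of either gene was shared with any other gene, and none was shared at 100 or 150 bases. No window of the Iapp transcript was found in another gene at any of these lengths. The deposited values carry the trace of such a division. The control-F2 value of Ins1 ended in 0.07 and that of Ins2 in 0.93, while in the AE-F2 library Ins1 ended in 0.92 and Ins2 in 0.08, so that their sum was a whole number in each library. Iapp was a whole number in both. The sum Ins1+Ins2 is therefore free of this division, while the values of the separate genes contain the share that the counting tool allotted.

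The genes lie on 3 chromosomes, with positions given on GRCm38 from GENCODE M21, which may differ from the authors' own annotation. Ins1 is on chromosome 19 from 52264297 to 52265476 on the plus strand, with 2 exons in a transcript of 1062 bases that ends 461 bases beyond the RefSeq model of the gene. The principal transcript of Ins2 is on chromosome 7 from 142678659 to 142679726 on the minus strand, with 3 exons and 478 bases. Iapp is on chromosome 6 from 142298423 to 142303961 on the plus strand, with 3 exons and 839 bases. Iapp lies within the span of Slco1a5, an organic anion transporter gene on the opposite strand that runs from 142234227 to 142322981. Whether the counting used strand is not stated, and Slco1a5 had 54 counts in control-F2 and 75 in AE-F2, against 295337 and 450833 for Iapp.

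The 250 bases before the transcription start are shown for Ins1 and Iapp, because these promoters hold the core letters bound by homeodomain factors such as Pdx1 and by basic helix-loop-helix factors such as Neurod1, whose transcripts are described further on. The sequences are from RefSeq on GRCm38.p6, on the plus strand, and 2 of the 3 genes had an entry. Capitals mark TAAT and CATCTG or their reverse complements ATTA and CAGATG, and TAAT and ATTA may overlap.
Ins1, chr19:52264047-52264296: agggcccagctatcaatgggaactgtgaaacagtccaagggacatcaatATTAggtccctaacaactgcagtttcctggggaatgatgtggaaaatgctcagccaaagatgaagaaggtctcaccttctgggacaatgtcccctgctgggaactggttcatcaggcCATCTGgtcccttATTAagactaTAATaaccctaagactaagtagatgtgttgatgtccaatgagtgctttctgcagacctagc
Iapp, chr6:142298175-142298424: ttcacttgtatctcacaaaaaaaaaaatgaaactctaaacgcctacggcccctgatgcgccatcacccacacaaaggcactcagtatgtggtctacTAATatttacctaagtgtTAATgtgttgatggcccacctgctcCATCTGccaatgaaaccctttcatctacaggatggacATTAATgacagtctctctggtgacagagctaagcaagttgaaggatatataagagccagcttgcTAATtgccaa
TAAT was found 3 times before Ins1 and 5 times before Iapp, counting both strands, and 54.9% of the 32851 promoters of the same length hold it at least once. CATCTG was found 1 time before each gene and is held by 14.4% of these promoters. The letters TGCTGA, part of the element bound by Maf factors, were not in either window, and 16.1% of the promoters hold them or their reverse complement. A match is a description of letters and not a measured binding site.

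Ins2 was the most abundant gene of both libraries. It held 2092227.93 estimated counts in control-F2 and 2632403.08 in AE-F2, which is 12.8% and 12.4% of all counts. Ins1, the second most abundant, held 794350.07 and 1084434.92 counts, or 4.88% and 5.10%. Iapp held 295337 counts in control-F2 and 450833 in AE-F2, or 1.81% and 2.12%. By count it ranked 3 in control-F2 and 4 in AE-F2, where Gcg, the glucagon gene of α-cells, stood above it. The 3 genes together took 19.5% of all counts in control-F2 and 19.6% in AE-F2, so nearly 1 count in 5 came from them in each library.

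**Figure D1:**
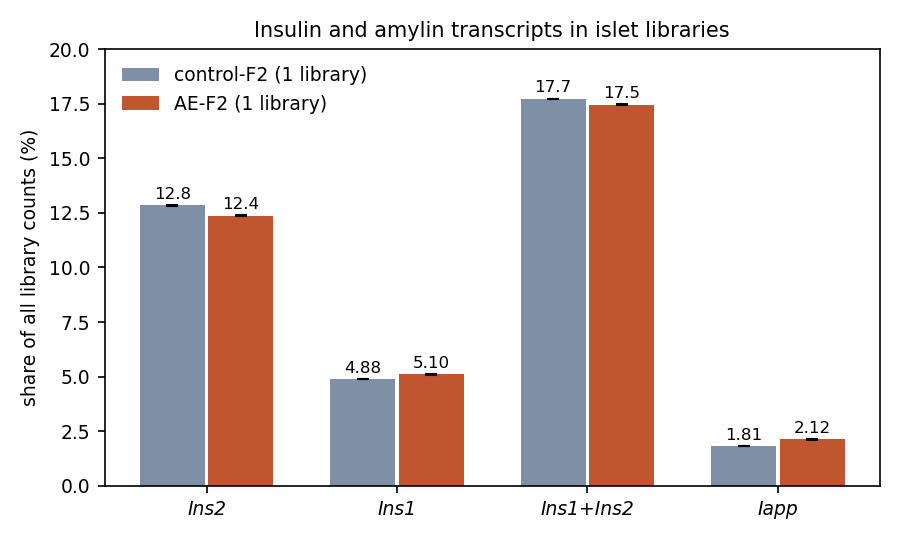
Share of all library counts, in percent, for Ins2, Ins1, their sum and Iapp in the control-F2 library and the AE-F2 library, 1 library each, with exact 95% binomial intervals that cover counting error only. The summed insulin share is 17.7% in control-F2 and 17.5% in AE-F2, and the Iapp share is 1.81% and 2.12%.

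Between the libraries Ins2 was slightly lower and Ins1 slightly higher in AE-F2, and the summed insulin counts were nearly level. Scaled by edgeR's TMM factors, which set the bulk of genes equal between libraries, the level of Ins2 was 128294 counts-per-million (CPM) in control-F2 and 123880 in AE-F2. Its log2 ratio, here always AE-F2 divided by control-F2, was -0.051, with a 95% interval from -0.053 to -0.048, a ratio of 0.966. This and all later intervals on the ratio of a gene or a sum between the libraries are Clopper-Pearson intervals. They cover counting error only, since PCR copies are not independent molecules, and leave out any difference between mice. Ins1 stood at 48709 CPM in control-F2 and 51033 CPM in AE-F2, a log2 ratio of 0.067 (0.063 to 0.071), or 1.05-fold. For Ins1+Ins2 the level was 177003 CPM in control-F2 and 174914 CPM in AE-F2, with a log2 ratio of -0.017 (-0.019 to -0.015), or 0.988-fold. The summed share of all counts went from 17.7% (17.71 to 17.74) in control-F2 to 17.5% (17.45 to 17.48) in AE-F2, a difference of -0.257 percentage points (-0.281 to -0.232), or -0.134 (-0.160 to -0.108) when mitochondrially encoded genes were left out of the total. With upper-quartile scaling the log2 ratio of Ins1+Ins2 was -0.00055 and its interval, from -0.0028 to 0.0017, included equality. It was above 0, at 0.10, only when scaled by a list of β-cell identity genes. That scaling was added after seeing the data, and the list was itself lower in AE-F2. The direction of Ins1+Ins2 therefore depends on whether this reference is used.

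Amylin stood apart from insulin. Iapp was at 18110 CPM in control-F2 and 21216 CPM in AE-F2, a log2 ratio of 0.23 (0.22 to 0.24), or 1.17-fold (1.17 to 1.18). Its share of all counts was 0.305 percentage points higher in AE-F2 (0.296 to 0.314). Iapp was higher in AE-F2 under each of the scalings tried, with log2 ratios from 0.22 with library totals to 0.35 when the β-cell identity genes were set equal.

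Ratios between genes of the same library do not depend on the scaling between libraries, and their log2 differences carry normal-approximation intervals from the counts. Ins1 made up 27.5% (27.47 to 27.57) of the insulin counts in control-F2 and 29.2% (29.13 to 29.22) in AE-F2, which is 1.66 percentage points more (1.59 to 1.73). There were 2.63 counts of Ins2 for each count of Ins1 in control-F2 and 2.43 in AE-F2. The ratio of Ins1 to Ins2 was thus 1.09-fold higher in AE-F2, at 0.12 on the log2 scale (0.11 to 0.12). For every 100 insulin counts there were 10.2 Iapp counts in control-F2 and 12.1 in AE-F2, a 1.19-fold difference, or 0.25 on the log2 scale (0.24 to 0.25). Taken against each insulin gene, the log2 ratio of Iapp was 0.16 over Ins1 and 0.28 over Ins2. Iapp was therefore higher relative to either insulin gene, and Ins1 higher relative to Ins2, in the AE-F2 library.

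To compare levels between genes, counts were divided by length. Per kilobase of the principal transcript, in transcripts-per-million (TPM) computed here, the level of Ins2 was 391113 in control-F2 and 372122 in AE-F2. Ins1 was at 66836 and 68999 TPM, and Iapp at 31454 and 36309 TPM, in the same order of libraries. Gcg followed in both libraries, at 21463 TPM in control-F2 and 29045 TPM in AE-F2. The order of Ins2, Ins1, Iapp and Gcg was the same per kilobase of coding sequence, where the gap between the insulin genes was smaller. There Ins2 stood at 385792 CPM per kilobase in control-F2 and 371507 in AE-F2, Ins1 at 149160 and 155853, and Iapp at 64307 and 75132. The distance between Ins2 and Ins1 per length therefore depends on the gene model, while their order does not.

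Most of the 13624 genes tested differed little between the libraries, with a median absolute log2 ratio of 0.12 and a median log2 ratio of 0.00027. Past 2-fold in either direction lay 3.79% of the genes, and 18.2% lay past a lower fold threshold of 0.32 on the log2 scale. None of the 3 members was past either, except that Iapp, at 0.35, was past the lower one when the libraries were scaled by the β-cell identity list. The counting interval lay wholly on one side of equality for 26.8% of all genes, and for 82.2% of the 118 genes that averaged at least 10000 counts, since counting error is very small at that depth. For Ins1, Ins2 and Iapp it lay off equality too, so this property does not set them apart from other abundant genes. Their sizes do differ in rank among these 118 genes, whose median absolute log2 ratio was 0.07 and of which 7.63% were past the lower fold threshold. Of the 117 other genes, 63 (53.8%) had a larger absolute log2 ratio than Ins1, 78 (66.7%) a larger one than Ins2 and 19 (16.2%) a larger one than Iapp.

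**Figure D2:**
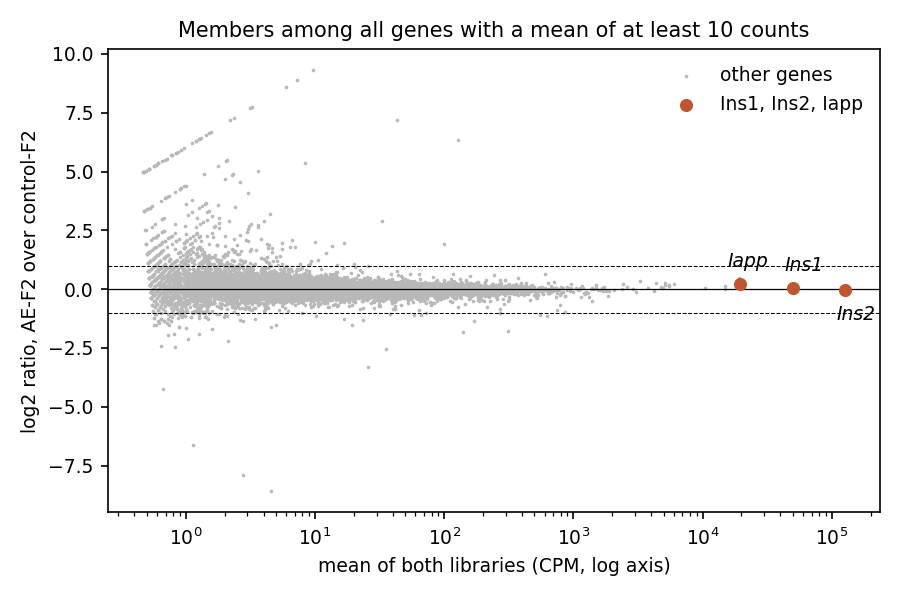
Log2 ratio (AE-F2 divided by control-F2) against the mean level in CPM on a log axis, with 1 point for each of the 13624 genes and dashed lines at 2-fold. Ins1, Ins2 and Iapp lie at the right end, between -0.051 and 0.23, inside the lines.

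In the upward direction 7 of the 117 abundant genes exceeded Iapp. They were Amy2a5, a pancreatic amylase of acinar cells, with a log2 ratio of 0.63, Gcg with 0.46, the mitochondrially encoded mt-Nd1, mt-Co2 and mt-Atp6 with 0.34, 0.27 and 0.26, the interleukin receptor gene Il1r1 with 0.31 and Ptma, which encodes prothymosin α, with 0.28. The names of mt-Nd1, Il1r1 and Ptma were chosen after their values were seen. Besides the members, 48 genes averaged at least 1000 CPM. Of these, the nearest to Iapp in log2 ratio were mt-Nd2 at 0.23, mt-Cytb at 0.22, mt-Atp6 at 0.26, mt-Co2 at 0.27 and Ttr at 0.17. Except for Ttr, the transthyretin gene that is abundant in α-cells, these are transcribed from the mitochondrial genome and encode parts of the respiratory chain and the ATP synthase. Nearest to Ins1+Ins2 were Ppy and Sst, the hormone genes of PP cells and δ-cells, P4hb, which encodes a protein disulfide isomerase, Cd164 and the calcium pump gene Atp2a2, with log2 ratios between -0.016 for Ppy and -0.0051 for Atp2a2. This likeness is over 2 libraries only. When the mitochondrially encoded genes were left out of the total, the difference in Iapp share was 0.338 percentage points.

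The transcription factors that act on the insulin genes were mostly slightly lower in the AE-F2 library. Of the 15 regulators listed, 12 were lower and 3 higher, where 6806 of all 13624 genes tested were lower and 6818 higher. The counting interval lay below equality for 9 and above it for 0, where 13.4% of all genes lay below and 13.4% above. Among the 3471 genes that averaged at least 1000 counts, a depth nearer to that of the regulators, 24.9% lay below and 16.3% above. Their median log2 ratio was -0.086, against 0.00027 over all genes tested. Pdx1, the homeodomain factor of pancreas formation and of β-cell identity, had 3541 counts in control-F2 and 4109 in the deeper AE-F2 library, or 217 and 193 CPM, a log2 ratio of -0.17 (-0.23 to -0.10). Mafa, which activates insulin transcription in mature β-cells, was at 474 CPM in control-F2 and 442 CPM in AE-F2, with a log2 ratio of -0.10 (-0.14 to -0.058). Neurod1, which acts at the E-box of the insulin promoter, had a log2 ratio of -0.069 (-0.14 to -0.00070). With upper-quartile factors the interval lay below equality for 7 of the 15 and above it for 1, where 11.3% of all genes lay below and 15.6% above. Those shares are over genes of all depths, and the share among genes of at least 1000 counts was not computed for this scaling.

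The lowest regulator was Nkx6-1, a homeodomain factor that maintains β-cells, at 538 CPM in control-F2 and 449 CPM in AE-F2, a log2 ratio of -0.26 (-0.30 to -0.22). Insm1, a zinc-finger factor of endocrine cells, had -0.24 and Mlxipl, the glucose-responsive factor also called ChREBP, had -0.22. Pax6, Foxa2 and Glis3 lay between -0.14 and -0.085. For Nkx2-2, Isl1, Rfx6, Creb1 and Tcf3 the interval included equality, and Rfx6 was the highest of the list at 0.081. None of the 15 was past the lower fold threshold. Insulin transcript share and the levels of these factors are therefore given side by side, and any link between them was not tested.

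Genes that mark β-cells but encode neither insulin nor amylin were lower in AE-F2 as a list. All 12 had a log2 ratio below 0, where 6806 of all 13624 genes tested did. The interval lay below equality for 11, and the median was -0.11, against 0.00027 over all genes tested. All 12 averaged at least 1000 counts and 7 of them at least 10000, depths at which 24.9% and 42.4% of genes lay below equality, against 13.4% of all genes. The list shares Pdx1, Mafa and Nkx6-1 with the regulators, so the counts of the lists are not independent. Slc2a2, the glucose transporter gene of the mouse β-cell, was at 942 CPM in control-F2 and 776 CPM in AE-F2, a log2 ratio of -0.28 (-0.31 to -0.25). Kcnj11 and Abcc8, the subunits of the ATP-sensitive potassium channel, had log2 ratios of -0.24 and -0.11. G6pc2, a glucose-6-phosphatase and the most abundant of the list, had -0.073. Set against the summed counts of these 12 genes, insulin was higher in the AE-F2 library, with 13.1 insulin counts per list count in control-F2 and 14.1 in AE-F2, or 0.10 on the log2 scale (0.093 to 0.11). On that scale Ins1 was at 0.19, Ins2 at 0.068 and Iapp at 0.35. The direction of Ins2 and of the insulin sum thus turns with the reference chosen, while that of Ins1 and Iapp does not.

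**Figure D3:**
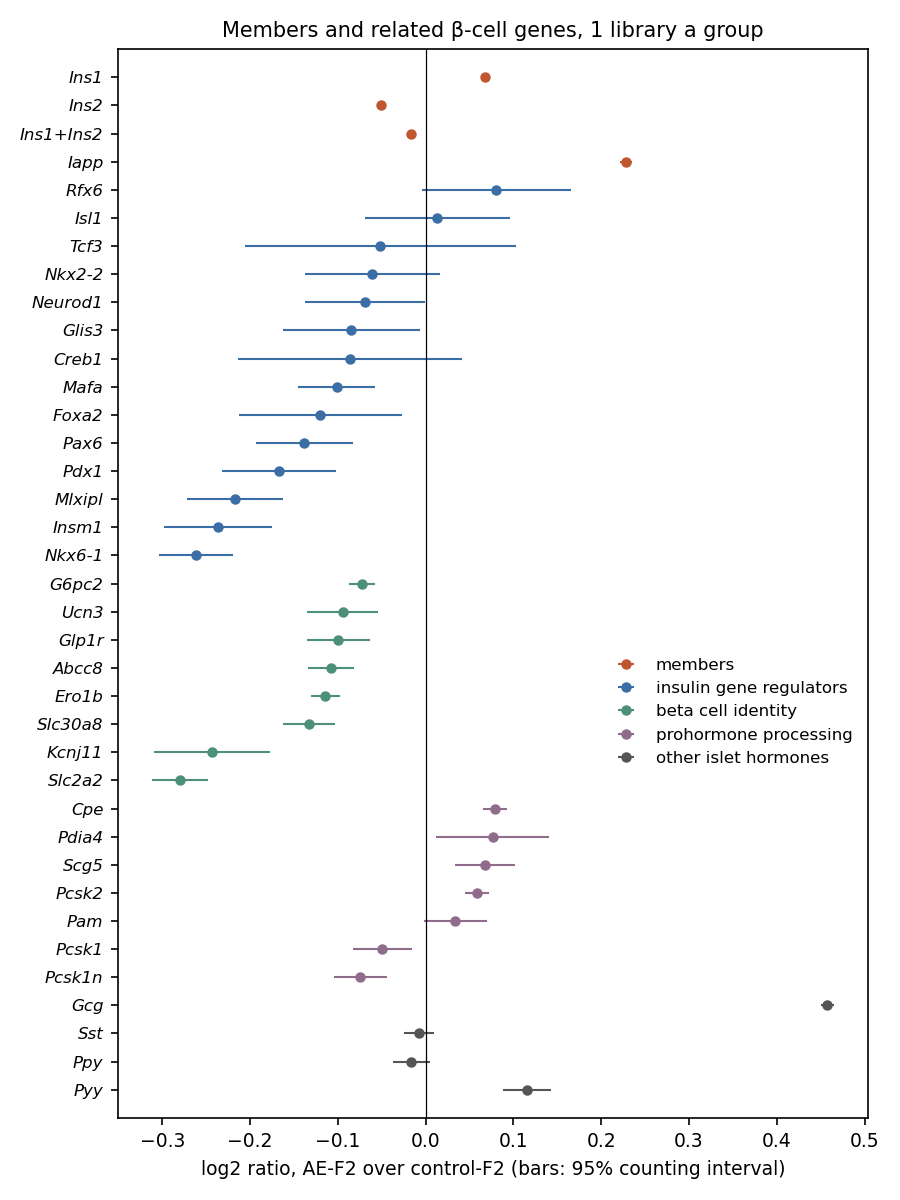
Log2 ratio (AE-F2 divided by control-F2) for the insulin and amylin genes, the insulin gene regulators, the β-cell identity genes not already shown (1 gene of each of these lists is left out), the prohormone processing genes and other islet hormone genes, with 95% counting intervals as bars and 1 library a group. The β-cell identity genes drawn, Pdx1, Mafa and Nkx6-1 among them, lie left of 0, whereas Iapp lies at 0.23 and Gcg at 0.46.

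The genes that turn prohormones into hormones differed little between the libraries, with a median log2 ratio of 0.034 over the 9 listed. The interval lay above equality for 4 and below it for 4, and 8 of the 9 averaged at least 10000 counts, a depth at which 39.8% of genes lay above and 42.4% below, so this count is near the background. With upper-quartile factors the interval lay above equality for 5 and below it for 3, where 15.6% of all genes lay above and 11.3% below. Those shares are over genes of all depths. The share among genes of at least 10000 counts was not computed for this scaling, so no excess can be read from these counts. Pcsk2 and Cpe, a convertase and the carboxypeptidase that trims the cut ends, were the most abundant, at 4817 and 4610 CPM in control-F2 and 5017 and 4868 CPM in AE-F2, with log2 ratios of 0.059 and 0.079. Scg5, the chaperone of the Pcsk2 product, had 0.068 and Pdia4, an endoplasmic reticulum disulfide isomerase, had 0.076. Pcsk1, the other convertase of proinsulin, had -0.049 (-0.083 to -0.016) and its inhibitor Pcsk1n had -0.074. Ero1b, an oxidase for disulfide bonds, and Slc30a8, which loads zinc into insulin granules, had -0.11 and -0.13, and both are also on the β-cell identity list. Pam, which amidates peptides such as amylin, had 0.034 with an interval that included equality.

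Other genes of the insulin family were scarce. Of the 7 listed, Igf1 and Igf2 passed the minimum mean, with 15 and 24 counts for Igf1 and 178 and 209.32 for Igf2 in control-F2 and AE-F2, and both intervals included equality. Rln1, Rln3 and Insl3 had 0 counts in both libraries, Insl5 had 0 and 1, and Insl6 had 2 and 4. A count of 0 allows a level of up to 3 counts, which is 0.184 CPM in control-F2 and 0.141 CPM in AE-F2. For the 5 genes of insulin receptors and insulin clearance, no difference beyond counting error was detectable at this depth. Insr, the insulin receptor gene, was at 91.7 CPM in control-F2 and 87.6 CPM in AE-F2, a log2 ratio of -0.066 (-0.16 to 0.033), and the intervals of Igf1r, Igf2r, Ide and Ceacam1 also included equality. Of these, Ide encodes the protease that degrades insulin and amylin. The same held for the 5 genes of the calcitonin family and the amylin receptors that passed, of 9 listed. Calcr, which encodes the core subunit of amylin receptors, had 0 counts in control-F2 and 1 in AE-F2, while its partners Ramp1, Ramp2 and Ramp3 had 177, 154 and 80 counts in control-F2 and 214, 222.7 and 123 in AE-F2. Calca and Calcb, the genes nearest to Iapp in this family, had 4 and 0 counts in each library.

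Transcripts of other cells differed between the libraries too, and in bulk islets fewer cells of a type cannot be told apart from less RNA per cell. The counts that follow stand beside 13.4% of all genes above equality and 13.4% below it, or 16.3% and 24.9% of the genes that averaged at least 1000 counts. By direction alone, 6818 of all 13624 genes tested were higher in AE-F2 and 6806 lower. All 8 α-cell markers were higher in AE-F2, 5 of them with an interval above equality (3 with library totals, where 13.0% of all genes lay above), and their summed level was 17717 CPM in control-F2 and 23903 CPM in AE-F2. Gcg, which made up most of that sum, had 9.05 counts per 100 insulin counts in control-F2 and 12.6 in AE-F2, 1.39-fold more. Iapp was lower relative to Gcg in AE-F2, at -0.23 on the log2 scale. None of the 4 δ-cell markers was off equality, and their sum was at 2991 and 2981 CPM. Of the PP cell genes, Ppy included equality and Pyy was above it at 0.12, and Ghrl, the ghrelin gene of ε-cells, had 57 and 48 counts, with a log2 ratio of -0.63 (-1.21 to -0.050) that lay below equality. Of the 11 leukocyte markers, 10 passed, and the interval of 9 of these lay above equality. Their sum was at 166 CPM in control-F2 and 631 CPM in AE-F2, with Cd3e at 0 in control-F2. The summed mesenchyme markers were at 69.0 and 117 CPM, with 5 of 6 above equality, and the summed duct markers at 316 and 362 CPM, with 2 of 5 above. Of the 10 acinar markers, 9 were below equality and Amy2a5 was above, and the sum was at 2652 CPM in control-F2 and 2356 CPM in AE-F2. The endothelial sum was at 550 and 547 CPM. All 10 immediate early genes, which stimulation or handling can induce within minutes, were below equality in AE-F2, with sums of 4309 and 2191 CPM. The part of these differences in the insulin and amylin values was not tested.

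**Figure D4:**
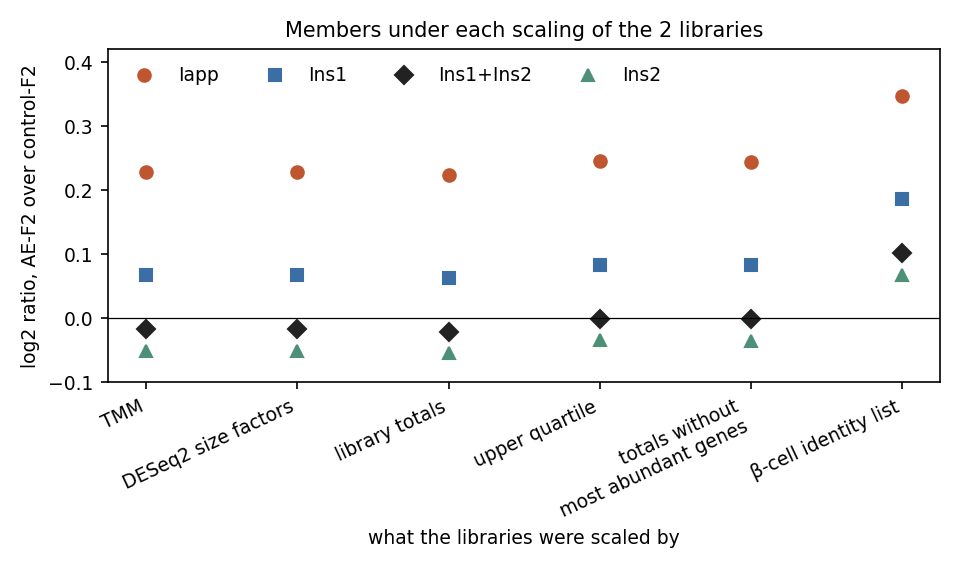
Log2 ratio (AE-F2 divided by control-F2) for Ins1, Ins2, their sum and Iapp under 6 ways of scaling the 2 libraries, 1 library a group. Iapp stays highest and above 0.2 in each, Ins1 stays above 0, and Ins2 and the sum lie above 0 only when the β-cell identity list is set equal.

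The plot of scalings shows the members under each reference. The distances between the 4 values are fixed within the libraries, so a scaling moves them all together. Ins1 lay above Ins1+Ins2 and Ins2 below it in each case, and Iapp lay above all of them.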

How the data were processed

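Poly(A) RNA of F2 islets was sequenced on an Illumina instrument. The study's methods name HISAT2 for alignment and the submitters' processing notes list Bowtie2, RSEM and DESeq2; which of them made the files, and the genome build and annotation, are not given in the sources used here. The authors deposited estimated counts per gene, unscaled for depth or length, 1 file per library. Here the counts were scaled with TMM factors (edgeR 4.0.16, R 4.3.3). They were rounded to whole numbers for these factors, for log2 ratios between the libraries and for Clopper-Pearson intervals, and left unrounded for CPM, TPM, shares and ratios between genes. Genes averaging under 10 counts were left out, and log2 ratios used a pseudocount of 0.5 counts. With scipy 1.17.1, 95% intervals were computed by the Clopper-Pearson method for shares and for ratios between libraries, by Newcombe's method for differences of shares, and by a normal approximation on the log scale for changes in a ratio between genes. All cover counting error only. Shares of counts used the full library totals. With 1 library a group there was no model fit and no p-value. At these depths counting error is under 1% for the 3 members. Names, lengths and positions were from GENCODE M21, and 21806 of 21899 identifiers matched a symbol. Coding sequences were aligned with biopython 1.88.

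The members and all gene lists were chosen with earlier results of these data known, the lists from general knowledge. Genes named are the members, list members, overlapping genes, the 10 most abundant per length, the 5 nearest in log2 ratio to Ins1+Ins2 and to Iapp, and others said to be chosen after their values were seen. Alternatives were DESeq2 1.42.0 size factors, library totals, upper-quartile factors, totals without the 10 most abundant genes, minimum means of 1 and 100 counts, a pseudocount of 5, a lower fold threshold, other denominators for shares and lengths of transcripts. Scaling by the β-cell identity list and the coding and principal transcript lengths were added after seeing the data. For 1 regulator and 1 β-cell identity gene, which enter the list counts and sums, the values are not reported here. The other 5 samples were not analysed here.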

Additional observations from a re-analysis of the deposited data

How the results depend on the processing

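No paired analysis was possible because each group had 1 library, control-F2 replicate 1 and AE-F2 replicate 4, which share no number, and for the same reason no replicate could be left out. Of 76 recomputed values, 52 moved by less than their own interval or by less than 1.5 times for counts, 22 moved further and 2 reversed. With library totals the log2 ratio of Ins2 was -0.054 and that of Ins1+Ins2 -0.021. With upper-quartile factors Ins1 was at 0.084, Ins2 at -0.034, Ins1+Ins2 at -0.00055, Iapp at 0.24 and the β-cell identity median at -0.094. With totals that left out the 10 most abundant genes and the members, Ins1 was at 0.083, Ins2 at -0.034, Ins1+Ins2 at -0.0011 and Iapp at 0.24. Scaling by the β-cell identity list, chosen after seeing the data, gave 0.19 for Ins1 and 0.35 for Iapp and turned Ins2 to 0.068 and Ins1+Ins2 to 0.10, since that list was itself lower in AE-F2. The 517 genes past 2-fold became 1633 at a minimum mean of 1 count, 48 at 100 counts and 2475 at the lower fold threshold of 0.32 on the log2 scale. Without mitochondrially encoded genes the insulin share differed by -0.134 percentage points and the Iapp share by 0.338. The difference in the Ins1 share of insulin was 1.55 percentage points per longest transcript, 1.52 with 200 bases taken off the length and 1.05 per principal transcript, where the log2 ratio of Iapp over insulin was 0.26. Depth limits none of the members; the number of libraries limits every comparison.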
